A study of Mus musculus with 6 samples.

Results

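The TREM receptors and the ITAM adaptors that carry their signals were followed in splenic monocytes of water-gavaged and vancomycin-gavaged mice. The members were chosen by gene symbol and are 8 genes: the receptors Trem1, Trem2, Trem3, Treml1, Treml2 and Treml4 and the adaptors Tyrobp and Hcst. All 8 were among the 46072 gene identifiers listed and among the 16138 with enough counts to be tested, and each stood on a single identifier.

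The study asked which changes in monocyte gene expression go with a stronger proinflammatory response after oral vancomycin, an antibiotic against Gram-positive bacteria. The animals were female C57BL/6 mice, 8 to 10 weeks old. The Van group (3 mice) was given 2 mg of vancomycin per mouse per day by gavage for 6 days, and the Con group (3 mice) was gavaged with water. Both groups then rested without antibiotic, for 6 to 8 days by the labels and for 8 days by the study's account of the RNA experiment. Monocytes were enriched from the spleen by magnetic negative selection, for which the study lists CD3e, CD45R, Ly-6G and NK1.1 among the markers that the cells lack, so that T cells, B cells, neutrophils and NK cells were selected against. Each mouse gave 1 library of poly(A) RNA, with a total estimated count of 43383919 to 61834407.

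The monocyte label was checked against markers. The summed CPM (counts scaled to library size) of 8 classical monocyte markers was 2570 to 3410 in Con and 2300 to 4060 in Van, and the 8 nonclassical markers were also detected. Of the classical markers, 4 had a log2 fold change above 0 and 4 below it. Vcan, a proteoglycan gene, passed the test of Van against Con as higher (54, 55.5 and 32.1 CPM in Con and 92.6, 140 and 179 CPM in Van). The chemokine receptor gene Ccr2 passed it as lower (757, 757 and 680 CPM in Con and 316, 444 and 473 CPM in Van). Markers of red pulp macrophages were present as well, with a sum over 8 genes of 2570 to 2960 CPM in Con and 3070 to 3750 CPM in Van, which did not overlap. The sum of 8 erythroid markers was 84.4 to 174 CPM in Con and 289 to 632 CPM in Van. Of these markers, 5 passed the test as higher, against 1.08% of all genes tested. The part of red pulp macrophages and erythroid cells in the results on the TREM receptors and the genes around them was not tested.

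TREM receptors are cell surface proteins of the immunoglobulin family on myeloid cells. Most have no signalling motif of their own and pair with DAP12, the product of Tyrobp, whose cytoplasmic tail holds an immunoreceptor tyrosine-based activation motif (ITAM). When the ITAM is phosphorylated by Src family kinases it recruits the kinase Syk, while the partner adaptor DAP10, the product of Hcst, recruits PI3-kinase. TREM-1 is known to amplify inflammatory responses to Toll-like receptor ligands, and TREM-2 to bind lipids and to restrain such responses in macrophages.

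The 6 receptor genes lie on the plus strand of chromosome 17 (GRCm38, GENCODE M21) within 134.4 kb. From left to right they are Trem1 (chr17:48232768-48246924), Trem3 (chr17:48247777-48258841), Treml4 (chr17:48264295-48275360), Treml2 (chr17:48299498-48312533), Trem2 (chr17:48346401-48354147) and Treml1 (chr17:48359916-48367176). Trem1 and Trem3 are separated by 852 bases and Treml2 and Trem2 by 33867 bases. The adaptor genes Tyrobp (chr7:30413760-30417585, plus strand) and Hcst (chr7:30417712-30419854, minus strand) point towards each other with 126 bases between them. No exon of a member overlapped an exon of another gene on either strand, and no member shared a stretch of at least 200 bases at 95% identity with a transcript of another gene.

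The signalling motifs of the adaptors are shown because they mark the step at which the receptors hand on their signal. Both stretches are coding sequence of GENCODE M21 transcripts, written 5′ to 3′. In the Tyrobp stretch (codons 92 to 106) the capitals are the codons of both ITAM tyrosines, and in the Hcst stretch (codons 68 to 79) the capitals are the codon of the tyrosine in the PI3-kinase binding motif.
Tyrobp: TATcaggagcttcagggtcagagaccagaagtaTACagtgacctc
Hcst: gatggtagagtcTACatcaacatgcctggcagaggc
The ITAM pattern was found in the coding sequence of Tyrobp and in none of the other 7 members.

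Per length of transcript, the adaptor gene Tyrobp was far above every receptor gene. Tyrobp had FPKM values (fragment counts scaled to transcript length and library size) of 1290, 1210 and 1180 in the Con mice, given throughout in the order of their replicate numbers, and of 1160, 1230 and 1240 in the Van mice. It ranked between 25 and 31 among all genes of a library. The order of mean FPKM was Tyrobp, Treml4, Trem1, Trem3, Hcst, Trem2, Treml2 and Treml1. The ranges over the 6 mice of Hcst (13.2 to 15.2 FPKM), Trem2 (7.16 to 12.5 FPKM), Treml2 (1.64 to 3.9 FPKM) and Treml1 (0.406 to 1.19 FPKM) did not overlap. Trem1 (44.5 to 108 FPKM) and Trem3 (35 to 44.7 FPKM) were the only neighbours in this order whose ranges overlapped, and Trem1 was above Trem3 in every mouse. Treml4 had between 214 and 283 FPKM.

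**Figure D1:**
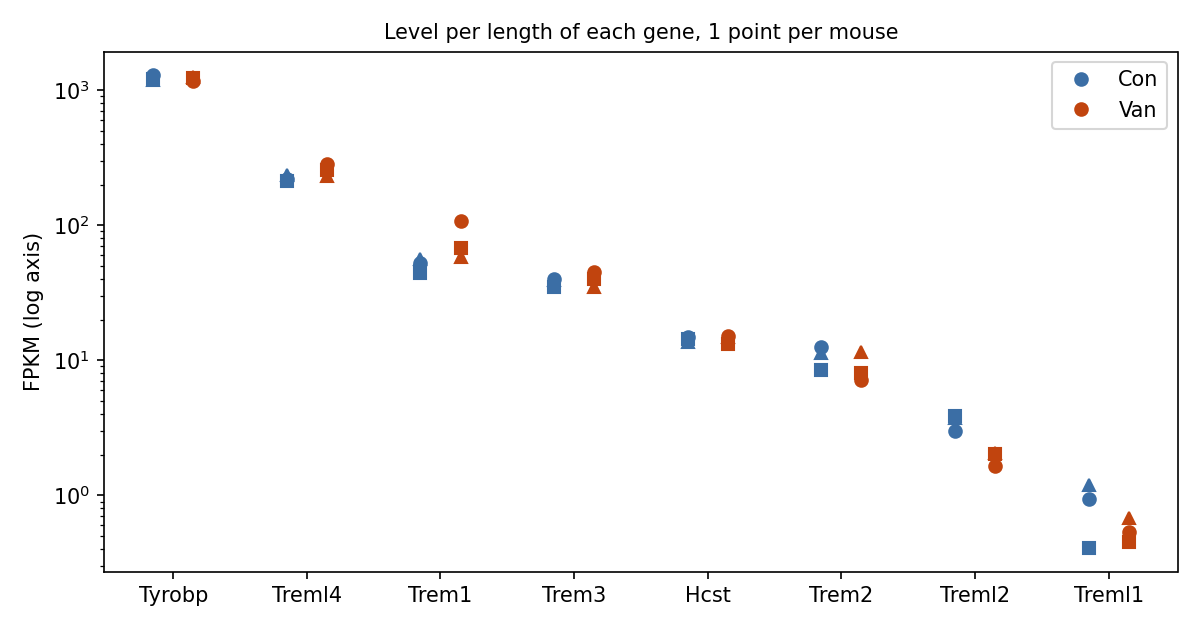
FPKM of the 8 genes on a log axis, with 1 point per mouse (blue Con, red Van; circle, square and triangle are replicates 1, 2 and 3). Tyrobp lies above 1000 in every mouse and Treml2 and Treml1 lie below 4.

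Between the groups, 1 of the 8 genes passed the test and it was lower in Van. That gene was Treml2. A gene was called when its adjusted p was 0.05 or less, and 2.00% of all genes tested were called (1.08% higher and 0.917% lower in Van). The groups did not overlap in CPM for 4 of the 8 members, with Trem1 and Treml4 above Con and Trem2 and Treml2 below it, against 22.5% of all genes tested. The same 4 members had an unadjusted p under 0.05, against 16.5% of all genes. Over the 8 members the median of the log2 fold changes was -0.02, and over all genes tested it was 0.

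Treml2 encodes TLT-2, a receptor of B cells and myeloid cells that is not known to need DAP12. Its CPM was 16.4, 21.2 and 19.8 in the Con mice and 8.85, 10.7 and 11.1 in the Van mice. Every Van mouse lay below every Con mouse. Treml2 fell by 0.91 on the log2 scale, to 0.533 of the Con level (95% interval 0.436 to 0.652; SE 0.13 on the log2 scale, n = 3 per group), with an adjusted p of 0.0173 (edgeR quasi-likelihood test, Benjamini-Hochberg). Its FPKM did not overlap between the groups either, at 3.01, 3.9 and 3.73 in Con and 1.64, 2.03 and 2.06 in Van. A permutation test of its CPM (exact, two-sided) gave p = 0.1, the smallest that 3 mice against 3 allow. The adjusted p was 0.0628 without Con replicate 2, 0.0886 without Con replicate 3 and 0.0867 without Van replicate 2, so that the call was lost without any of these mice. With limma on log2(FPKM + 1) it was 0.105. The fold stayed between -1.01 and -0.81 on the log2 scale whichever mouse was left out.

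The B cell markers were recorded beside Treml2. The summed CPM of 8 B cell markers was 32.1 to 35.8 in Con and 22.9 to 27.2 in Van. All 8 had a log2 fold change below 0, and none of them was called by edgeR. An unadjusted p under 0.05 was found for 2, against 16.5% of all genes tested. Cd22 gave 18.2 to 28.2 CPM of the sum. B cells carry CD45R, which the isolation selects against. The part of B cells in the result was not tested, and in bulk RNA fewer cells of a type and less RNA per cell cannot be told apart.

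**Figure D2:**
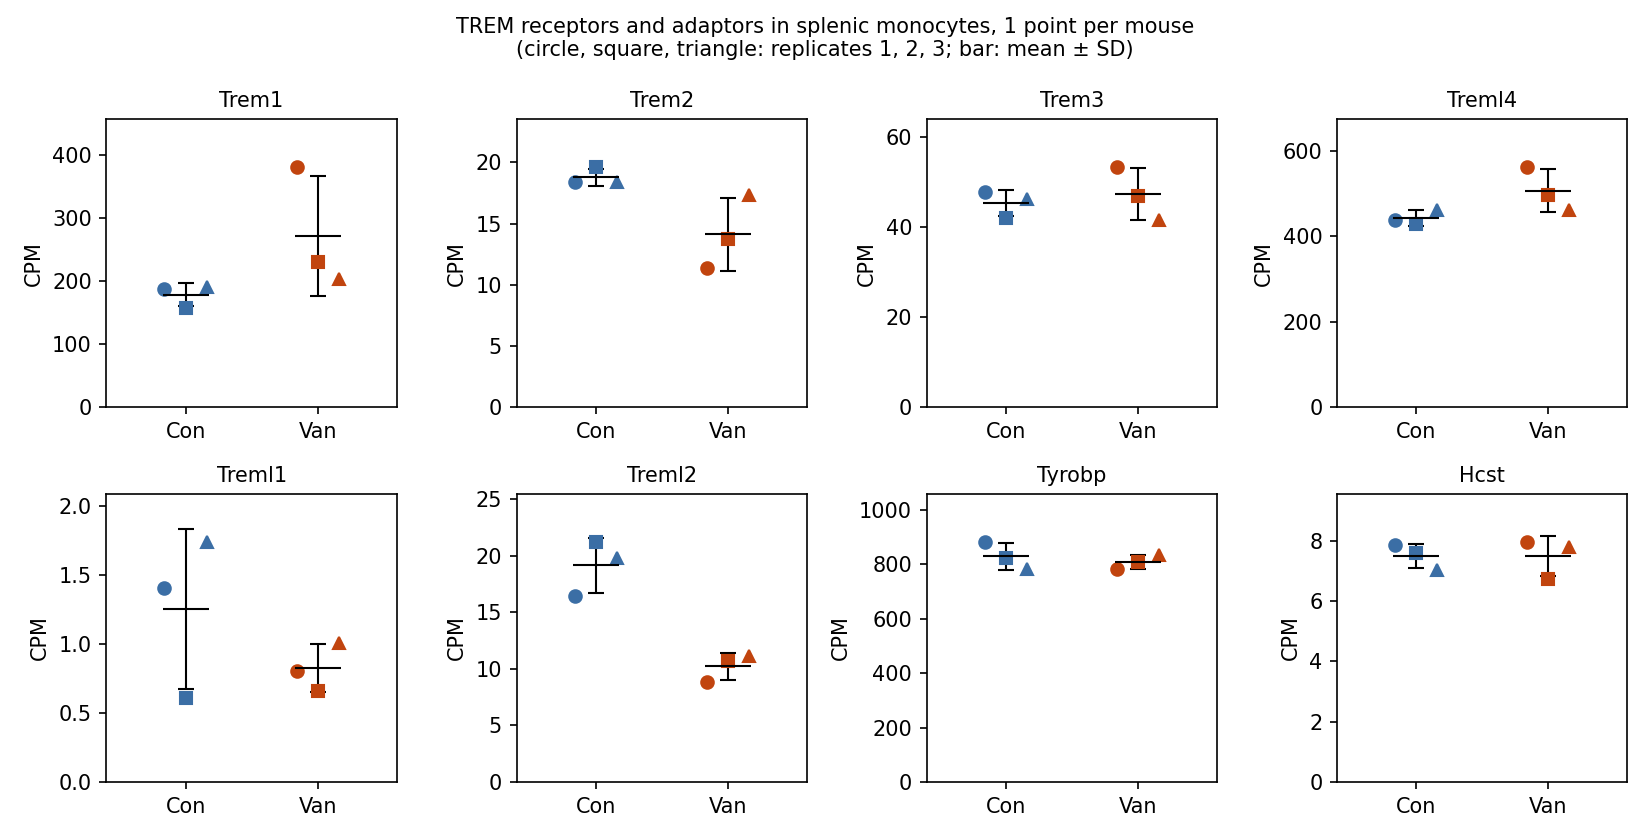
CPM of the 8 genes in each mouse, with the mean and SD of each group of 3 (each panel starts at 0 and has its own scale). The Van mice lie below the Con mice for Treml2 and Trem2, and above them for Trem1 and, by less than 0.1 CPM, for Treml4.

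Trem1 was the receptor with the widest spread among Van mice. Its CPM was 188, 157 and 191 in the Con mice and 381, 231 and 204 in the Van mice. All Van mice lay above all Con mice, and Van replicate 1 stood far above the other Van mice. The mean was 179 ± 18.7 (SD, n = 3) in Con and 272 ± 95.4 (SD, n = 3) in Van. The log2 fold change was 0.61 (SE 0.21, 95% interval 0.13 to 1.08), with an edgeR adjusted p of 0.197, so that Trem1 did not pass the test. Without Van replicate 1 the log2 fold change was 0.28 (adjusted p = 0.231). FPKM did not overlap either, at 44.5 to 56.1 in Con and 57.8 to 108 in Van.

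Treml4, a DAP12 partner known from splenic macrophages and Ly6C-low monocytes, was the most abundant receptor gene. Its CPM was 439, 428 and 463 in Con and 562, 496 and 463 in Van. The highest Con mouse and the lowest Van mouse were both at 462.7 CPM, so that the groups touched. The log2 fold change was 0.19 (SE 0.08, 95% interval 0.02 to 0.37; edgeR adjusted p = 0.256), and FPKM overlapped between the groups. The Van mouse with the most Treml4 was the same replicate 1 that had the most Trem1, and without it the log2 fold change was 0.11 (adjusted p = 0.436).

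Markers of cells known to express Treml4 or Trem1 were recorded beside these values. The summed CPM of 8 nonclassical monocyte markers was 9780 to 11300 in Con and 10200 to 13500 in Van, with Van replicate 1 the highest. Of the 8 red pulp macrophage markers, 7 had a log2 fold change above 0 and 0 were called by edgeR. An unadjusted p under 0.05 was found for 5 of them, against 16.5% of all genes tested. Trem1 is also a gene of neutrophils, and the sum of 10 neutrophil markers was 354 to 402 in Con and 410 to 473 in Van. Most of that sum was Csf3r (312 to 387 CPM), which monocytes express too, while Ly6g was at 0 in every library and S100a8 and S100a9 reached at most 3.55 CPM. Of the 8 neutrophil markers tested, 6 had a log2 fold change below 0 and 2, Csf3r and Mmp8, above it (median -0.64). None was called by edgeR, and 2 had an unadjusted p under 0.05, against the same 16.5% of all genes. The isolation selects against cells with Ly-6G. The part of these cells in the results was not tested.

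Trem2 was lower in every Van mouse in CPM but not in FPKM. Its CPM was 18.4, 19.6 and 18.4 in Con and 11.4, 13.7 and 17.3 in Van. Every Van mouse was below every Con mouse, with Van replicate 3 closest to Con. The log2 fold change was -0.41 (SE 0.14, 95% interval -0.73 to -0.09; edgeR adjusted p = 0.191), so that Trem2 did not pass the test. Its FPKM was 12.5, 8.44 and 11.4 in Con and 7.16, 8 and 11.5 in Van, and the groups overlapped (exact permutation p = 0.3). The study lists Trem2 among pathway inhibitors suppressed after vancomycin and restored when the bacterial lipid L654 was given as well (VanLip). Those genes came from gene ontology terms and were picked by their change in the study's own libraries. The direction of Trem2 in these mice is therefore not independent evidence.

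The count and the FPKM of Trem2 were not in a fixed ratio over the mice. Dividing the count by the FPKM, scaled to the library median, gave 0.466, 0.732 and 0.523 in Con and 0.506, 0.559 and 0.477 in Van, with Con replicate 2 the highest. The highest value was 1.57 times the lowest, a wider range over mice than for 99.5% of the 10237 genes compared (median 1.03), while the other members stayed at or under 1.03. GENCODE M21 lists 4 transcripts for Trem2, of which 2 are protein coding (1088 and 1056 bases) and 1 is a 4784-base transcript with a retained intron. The part of these transcripts in the values was not tested.

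**Figure D3:**
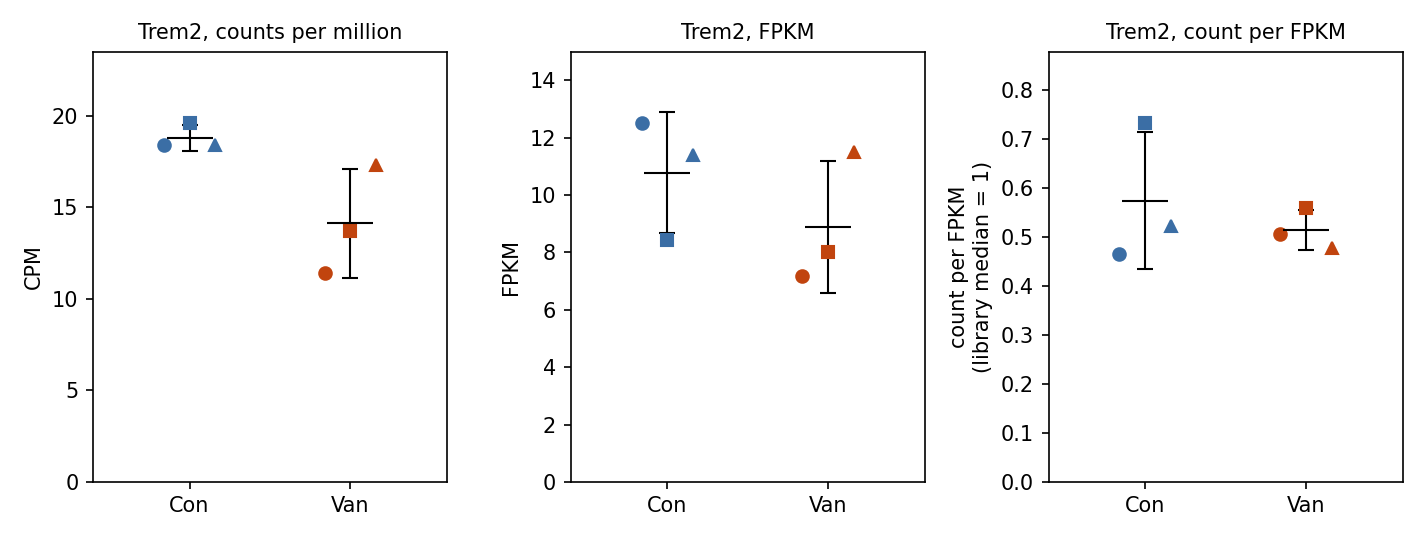
Trem2 in each mouse as CPM, as FPKM and as count per FPKM relative to the library median, with the mean and SD of each group. The groups separate in CPM and overlap in FPKM, and Con replicate 2 (square) has the highest count per FPKM at 0.732.

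Trem3 and both adaptors did not pass the test. Trem3, an activating DAP12 partner of mouse macrophages, had a CPM of 47.7, 42 and 46.2 in Con and 53.2, 46.8 and 41.6 in Van. Its log2 fold change was 0.06 (SE 0.10, 95% interval -0.16 to 0.28; edgeR adjusted p = 0.831). Tyrobp had a CPM of 882, 825 and 782 in Con and 782, 809 and 834 in Van, and the interval of its log2 fold change (-0.17 to 0.10; adjusted p = 0.834) corresponds to 0.887 to 1.07 of the Con level. Hcst had a CPM of 7.85, 7.59 and 7.05 in Con and 7.96, 6.75 and 7.81 in Van, with an interval of -0.27 to 0.27 on the log2 scale (adjusted p = 0.997). The groups overlapped for all of these genes.

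Treml1, which encodes the platelet receptor TLT-1, had a CPM of 1.41, 0.61 and 1.74 in Con and 0.802, 0.663 and 1.01 in Van, from counts between 33.8 and 75.4. The groups overlapped, and the log2 fold change was -0.59 (SE 0.41; edgeR adjusted p = 0.534). It was -0.28 without Con replicate 3 and -0.92 without Con replicate 2. The sum of 8 platelet markers was 31.8, 19.6 and 36.8 CPM in Con and 23.2, 21.3 and 16.8 CPM in Van. Con replicate 2 was the lowest Con mouse in both. Among the Van mice, replicate 3 had the most Treml1 and the lowest platelet sum. The part of platelets in the result was not tested.

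**Figure D4:**
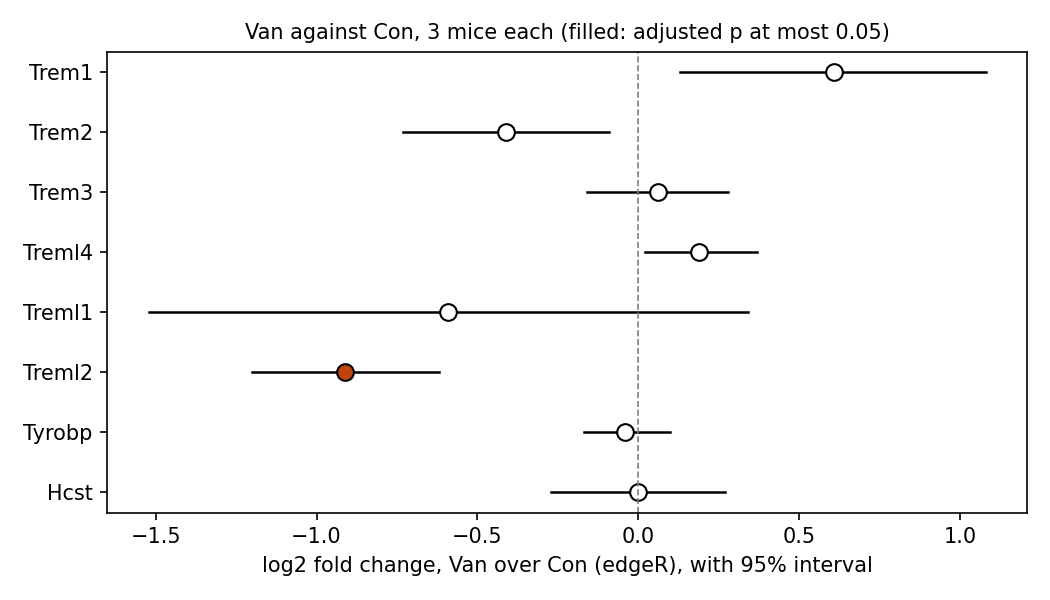
Log2 fold change of each member in Van over Con from edgeR, with its 95% interval. Treml2 alone has an adjusted p of at most 0.05 (filled point). The intervals of Trem1, Trem2 and Treml4 exclude 0 without passing the adjusted test, and those of the other members include it.

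Because FPKM is per length, the receptor genes that pair with DAP12 could be set against Tyrobp within a mouse. The summed FPKM of Trem1, Trem2, Trem3 and Treml4 was 25.2%, 24.9% and 29.1% of Tyrobp in Con and 38.3%, 30.3% and 27.3% in Van. The means were 26.4% ± 2.38 (SD, n = 3) in Con and 31.9% ± 5.69 (SD, n = 3) in Van, and the groups overlapped (exact two-sided permutation p = 0.2). The difference of 5.54 percentage points was 2.37 without Van replicate 1. Treml4 made up 64% to 70.9% of the receptor sum in every mouse. Trem1 made up 14.7% to 16.3% of it in Con and 17.1% to 24.3% in Van. Trem3 made up 11.5% to 12.2% in Con and 10.1% to 10.8% in Van, while its own FPKM averaged 38.1 in Con and 40 in Van. Trem2 made up 2.8% to 3.83% in Con and 1.62% to 3.41% in Van, which overlapped. The shares of Trem1 and Trem3 did not overlap between the groups, which is given as a description.

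The promoters of Trem1, Treml4 and Trem2 are printed because these 3 genes had the strongest correlations among the members, a choice made after the values were seen. Over the 6 mice, the Pearson correlation of log2 CPM was 0.98 between Trem1 and Treml4, -0.95 between Trem1 and Trem2 and -0.97 between Trem2 and Treml4. These values describe 6 libraries of 2 groups, share their library sizes and include the group difference. The sequences are from RefSeq (GRCm38.p6), plus strand, written 5′ to 3′, and hold no exon: Trem1 at chr17:48232489-48232712, Treml4 at chr17:48264045-48264199 and Trem2 at chr17:48346151-48346400. Of the 8 members, 5 were matched in the promoter table. Capitals mark matches on either strand to GAGGAA (the core bound by PU.1, the lineage factor of myeloid cells) or to TGANTCA, which do not overlap each other. TGANTCA is a loosened form of the AP-1 site, which has C or G at the middle base N.
Trem1: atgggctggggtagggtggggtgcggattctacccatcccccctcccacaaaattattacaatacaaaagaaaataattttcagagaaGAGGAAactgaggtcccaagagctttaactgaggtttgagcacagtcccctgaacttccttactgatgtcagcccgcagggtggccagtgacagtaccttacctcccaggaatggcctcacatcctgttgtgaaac
Treml4: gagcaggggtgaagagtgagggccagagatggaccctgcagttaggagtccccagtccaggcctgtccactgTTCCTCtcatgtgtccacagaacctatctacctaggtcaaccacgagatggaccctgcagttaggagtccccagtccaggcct
Trem2: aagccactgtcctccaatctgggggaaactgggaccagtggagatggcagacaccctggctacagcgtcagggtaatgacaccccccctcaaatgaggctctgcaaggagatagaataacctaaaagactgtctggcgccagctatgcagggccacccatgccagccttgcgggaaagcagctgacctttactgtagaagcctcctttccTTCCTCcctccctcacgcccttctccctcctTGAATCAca
All 3 windows hold 1 match to GAGGAA. Among all 32851 promoters cut to the same length, 20.8% (Trem1), 15.1% (Treml4) and 23.3% (Trem2) hold at least 1. The Trem2 window also holds 1 match to TGANTCA, with A at the middle base, so it is not the AP-1 site itself. Of promoters of that length, 6.75% hold a match to TGANTCA with any middle base. The Treml4 window carries a 39-base stretch repeated 91 bases apart. Both strands were also searched for the C/EBP motif TTGCNNAA, for an E-box with the letters CACGTG and for the TATA box letters TATAAA, and none of these is in the 3 windows. The windows of the other matched members, Hcst and Treml1, hold 0 matches to GAGGAA, and that of Treml1 holds 1 to CACGTG, as do 6.02% of promoters of its length.

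By likeness over the 6 mice, the genes nearest to Trem2 in log2 CPM were Ly6c1 (Pearson r = 0.992), Mbtps2 (0.989) and E430025E21Rik (0.982), out of 8486 genes with a mean of at least 10 CPM. Ly6c1, which may share reads with its close paralog Ly6c2, had 40.1, 43 and 39 CPM in Con and 27, 31.7 and 39.5 CPM in Van. For Tyrobp the nearest were Gm15772 (0.997), Gm10036 (0.985) and Clcn6 (0.984). Of the 8486 genes, 155 had a correlation above 0.9 with Trem2 and 73 with Tyrobp.

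The genes around the receptors were described in 6 lists, which hold 91 genes, of which 83 were tested. Of these, 2 were called higher and 2 lower in Van, where 1.08% of all genes tested were called higher and 0.917% lower. The median over the 83 genes was 0. Each call was kept under 7 or 8 of the 16 alternatives. The called genes were the kinase Syk, the PI3-kinase subunit Pik3r1, the NK and T cell receptor Klrk1 and the phosphatase Ubash3b.

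**Figure D5:**
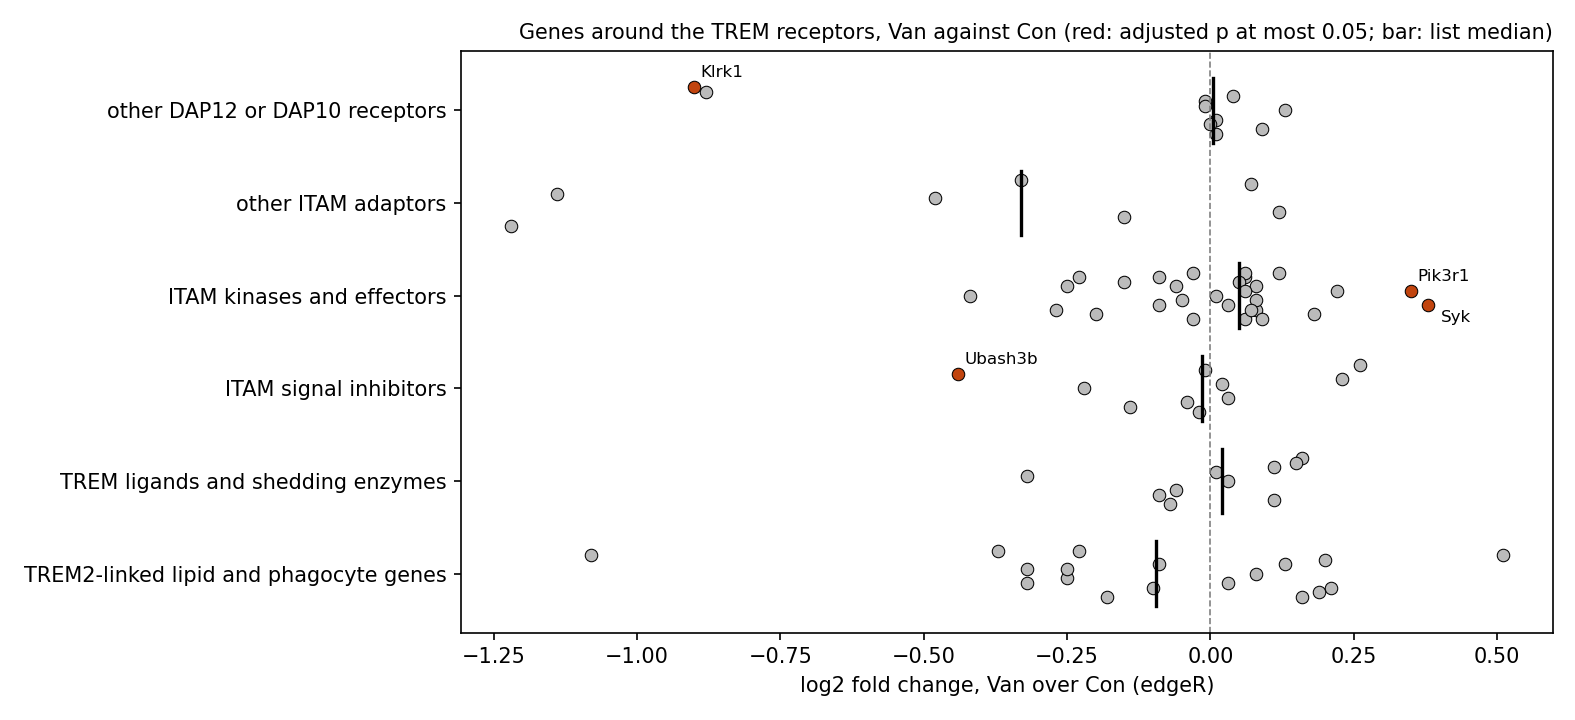
Log2 fold change (Van over Con) of every tested gene of the 6 lists, with the median of each list as a bar. The 4 genes with an adjusted p of at most 0.05 are red and named: Syk and Pik3r1 to the right of 0, Klrk1 and Ubash3b to the left.

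Among 29 kinases and effectors downstream of ITAM adaptors, 2 were called higher and 0 lower in Van. The groups did not overlap for 7 of the 29, against 22.5% of all genes tested. Syk, the kinase that binds phosphorylated ITAMs, had a CPM of 670, 735 and 693 in Con and 969, 908 and 862 in Van. Every Van mouse was above every Con mouse, and the log2 fold change was 0.38 (SE 0.06; edgeR adjusted p = 0.0283). Its adjusted p was 0.0593 to 0.123 with any mouse but Van replicate 3 left out (0.0495). Pik3r1, a regulatory subunit of PI3-kinase, had a CPM of 97.3, 96.5 and 103 in Con and 132, 124 and 124 in Van, with a log2 fold change of 0.35 (SE 0.06; adjusted p = 0.0283). Its call was lost with any mouse left out (adjusted p = 0.0681 to 0.117). Prkcd, a protein kinase C, and Lyn, a Src family kinase, had the most counts of the list, with log2 fold changes of 0.18 (adjusted p = 0.177) and 0.08 (adjusted p = 0.535). Lat, an adaptor of T cells, had a log2 fold change of -0.42 (adjusted p = 0.555). The median of the list was 0.05. The summed red pulp macrophage and erythroid markers were also higher in every Van mouse than in every Con mouse, and their part in the values of Syk and Pik3r1 was not tested.

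Among the inhibitors of ITAM signals, 10 of 11 genes were tested and 1 was called, lower in Van. Of all genes tested, 0.917% were called lower. The groups did not overlap for 3 of the 10, against 22.5% of all genes tested. Ubash3b, a tyrosine phosphatase that acts on Syk, had a CPM of 55.4, 50.8 and 58 in Con and 40.4, 38.7 and 41.6 in Van, with no overlap. Its log2 fold change was -0.44 (SE 0.07; edgeR adjusted p = 0.0255), and its call was lost with any mouse left out (adjusted p = 0.0527 to 0.124). The phosphatase genes Ptpn6 and Inpp5d had the most counts of the list, with log2 fold changes of -0.14 (adjusted p = 0.204) and -0.04 (adjusted p = 0.81). Dok2 was at 0.26 (adjusted p = 0.531). The median of the list was -0.01.

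Among the other receptors that use DAP12 or DAP10, 10 of 15 genes were tested and 1 was called, lower in Van. Of all genes tested, 0.917% were called lower. Klrk1 encodes NKG2D, a receptor of NK and T cells that signals through both adaptors. Its CPM was 38.2, 24.7 and 31.2 in Con and 20.7, 15.5 and 14 in Van. Its log2 fold change was -0.90 (SE 0.18) with an edgeR adjusted p of 0.0495, and with RLE size factors in place of TMM the adjusted p was 0.051. It was 0.0586 to 0.179 with any mouse but Van replicate 1 left out (0.0477), and 0.203 and 0.315 with limma on FPKM. The sum of 8 NK cell markers was 1.35 to 2.12 CPM in Con and 0.955 to 1.75 CPM in Van, and that of 8 T cell markers 40.9 to 55.2 and 32.2 to 43.7. Cd4, which myeloid cells can also express, gave 23.3 to 39.7 CPM of the T cell sum, while Cd3e was at 0.991 CPM or below in every library. The isolation selects against cells with NK1.1 or CD3e. The part of these cells in the result was not tested. Siglech, a marker of plasmacytoid dendritic cells, was at -0.88 (adjusted p = 0.113) and was also lower in every Van mouse. Of 7 dendritic cell markers tested, 6 had a log2 fold change below 0, while Flt3 was at 0.25 (edgeR adjusted p = 0.23). The 1 called was Clec9a (-1.12, adjusted p = 0.0131), lower in Van, against the same 0.917% of all genes. Their sum was 91.7 to 122 CPM in Con and 91.3 to 105 CPM in Van, and the part of dendritic cells in the value of Siglech was not tested. Sirpb1c and Sirpb1a, with the most counts of the list, were at 0.04 (adjusted p = 0.899) and 0.13 (adjusted p = 0.569), and reads of this family of near-identical genes may be split between its members.

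None of the 7 other ITAM adaptor genes was called by edgeR, and 2 had an unadjusted p under 0.05, against 16.5% of all genes tested. Fcer1g, the adaptor of Fc receptors in myeloid cells, had 624 ± 61.7 CPM (SD, n = 3) in Con and 656 ± 13.1 CPM (SD, n = 3) in Van, a log2 fold change of 0.07 (adjusted p = 0.697). Cd247, Cd79a and Cd79b, adaptors of T and B cell receptors, were at -1.22 (adjusted p = 0.122), -0.48 (adjusted p = 0.451) and -0.15 (adjusted p = 0.537). The median of the list was -0.33.

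Of 10 tested genes for ligands and shedding enzymes of the receptors, edgeR called 0, also 0 at an unadjusted p under 0.05, and the median log2 fold change was 0.02. Apoe, a lipid carrier that TREM-2 binds, was at 0.16 (adjusted p = 0.629), Adam10, a protease that sheds TREM-2, at -0.07 (adjusted p = 0.63) and Clu at -0.32 (adjusted p = 0.38). Of 18 tested genes of lipid handling and phagocytes that are linked to TREM-2, 0 were called by edgeR and 4 had an unadjusted p under 0.05, also against 16.5% of all genes. Ctsb, a lysosomal protease, was at 0.08 (adjusted p = 0.63), Cst7 at -1.08 (adjusted p = 0.152) and Spp1 at 0.51 (adjusted p = 0.636).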

How the data were processed

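The authors aligned reads to GRCm38 with HISAT2 2.2.1, computed FPKM values with StringTie 2.1.3 and Ballgown, and made the deposited estimated counts with tximport. Times 75, 52.3% to 55% of the non-zero counts per library came within 0.05 of a whole number, while the stated read length is 100 bases, so a count is not a fragment. The annotation release and use of the strand are not given in the sources used here. The study's data statement names a different deposit, so the libraries were tied to its groups through their treatment. VanLip mice were not analysed here.

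The estimated counts were rounded and tested in R 4.3.3 with edgeR 4.0.16 (TMM, expression filter at a minimum count of 10, quasi-likelihood test, group as the only term) rather than the DESeq2 Wald test of the study. P-values were adjusted by Benjamini-Hochberg over all 16138 genes tested, with a threshold of 0.05. CPM used TMM library sizes. Replicates are biological replicates per the labels, and no 2 libraries of the same group were copies. Alternatives were DESeq2 1.42.0, limma 3.58.1 on log2(FPKM + 1) or log2(FPKM + 0.1), and other size factors and filters. The rest were the replicate number as a block, 1 identifier per symbol, counts times 75/200 and each mouse left out. The models were tested on simulated data. The genes named are the 8 members, the called genes of the lists, in each list the 2 with the highest mean CPM and the 2 with the largest absolute log2 fold change at a mean of at least 1 CPM, and the 3 nearest to Trem2 and to Tyrobp. The members and lists were chosen with earlier results of these data known.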

Additional observations from a re-analysis of the deposited data

How the results depend on the processing

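Calls varied with the test and with the mice included. Of all genes, 322 were called, against 965 with DESeq2, 110 with the replicate number as a block, 24 with limma on log2(FPKM + 1), 0 with limma on log2(FPKM + 0.1) (2388 at an unadjusted p under 0.05) and between 21 and 136 with a mouse left out. Of the members, 1 was called, against 0 with limma on either scale (1 at an unadjusted p under 0.05 on each) and 0 to 1 with a mouse left out. Of the list genes, 4 were called, against 9 with DESeq2, 1 with the block, 0 and 0 with limma (17 and 13 at an unadjusted p under 0.05) and 0 to 1 with a mouse left out. Treml2 was called under 11 of 16 alternatives, with adjusted p from 2.31e-07 (DESeq2) to 0.223 (limma on log2(FPKM + 0.1)). Under limma on log2(FPKM + 1) its log2 fold change was -0.63 (adjusted p = 0.105). Syk, Pik3r1 and Ubash3b lost the call under the replicate block (adjusted p = 0.0735, 0.0789 and 0.0505). These calls and that of Klrk1 were lost with limma and with any mouse left out, except Syk without Van replicate 3 (adjusted p = 0.0495) and Klrk1 without Van replicate 1 (adjusted p = 0.0477). Klrk1 also lost its call with RLE size factors (adjusted p = 0.051). The sign turned for Trem3 with Van replicate 1 left out (range -0.04 to 0.14) and for Tyrobp with limma (0.05 and 0.05) and with Con replicate 1 left out (range -0.07 to 0.01), and Hcst, at 0, ranged from -0.04 to 0.07 with a mouse left out. Receptor FPKM over Tyrobp differed by 5.54 percentage points (2.37, without Van replicate 1, to 7.87 with a mouse left out), and by 21.3 with CPM, which is not per length. Same-numbered mice did not vary together (correlations 0.07, -0.03 and -0.15), so the numbers do not pair the mice. Groups of 3 mice limit every value, and the smallest exact permutation p is 0.1.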
